A study of Rattus norvegicus with 18 samples.

Results

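Rat cortical astrocytes held for 3 days on a surface coated with a beta-amyloid fragment were compared with astrocytes held on it for 1 day. The comparison used the 3 arrays of each time, 6 of the 18 arrays of the series, chosen by their titles. It asked which genes differed between the later and the earlier time, and which differences from control seen at 1 day were no longer seen at 3 days. The fragment, beta-amyloid peptide 25-35, was immobilized and covers residues 25 to 35. The cells are labelled type-I cortical astrocytes, and total RNA was measured on an array of neurobiology genes. The 6 control arrays hold cells grown on nitrocellulose and laminin with no peptide. The labels of control 1 and control 2 give cerebral cortex as the source, and those of every other array give type-I astrocytes. The 3 arrays at 12 hours and the 3 at 5 days on the peptide are used here only to place the levels in time. No label gives the time the controls spent in culture, and no control was taken at 1 day or at 3 days, so time on the peptide and time in culture cannot be told apart. No label says whether arrays of a group came from separate cultures, so p-values measure the spread between arrays, which may be technical.

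Astrocytes take up glutamate and potassium around synapses, supply glutamine to neurons and release cytokines, growth factors and peptides. The fragment used here is a short stretch of beta-amyloid that forms fibrils and is widely used in culture to provoke the glial reaction seen around amyloid plaques. That reaction is known for early induction of immediate early genes, prostaglandin synthase, chemokines and growth factors, some of which is transient. In a culture the RNA of all cells is measured together, and fewer cells of a type and less RNA per cell cannot be told apart.

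Array 3 of both times stood apart from arrays 1 and 2. Over the 1027 probe sets tested, arrays 1 and 2 at 1 day correlated at r = 0.958 and array 3 correlated with them at 0.838 and 0.844. At 3 days arrays 1 and 2 correlated at 0.958 and array 3 with them at 0.800 and 0.810. The arrays numbered 3 correlated with each other across the times at 0.944, and with control 2 at 0.959 (1 day) and 0.945 (3 days). Arrays 1 and 2 at 3 days were closest to control 3, at 0.949 and 0.950. When all 18 arrays were divided into 2 clusters, both arrays numbered 3 fell with controls 1 and 2 and the 12 hour arrays, and the other 4 fell with controls 3 to 6 and the 5 day arrays. The labels name no batch, and what the split reflects was not tested. For the results these arrays moved most, differences by array number or values without them are given. The clusters, and the choice to leave out the arrays numbered 3, came from the same values that were tested. Adjusted p-values from those 2 fits may therefore be too small, and they are given as description.

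**Figure D1:**
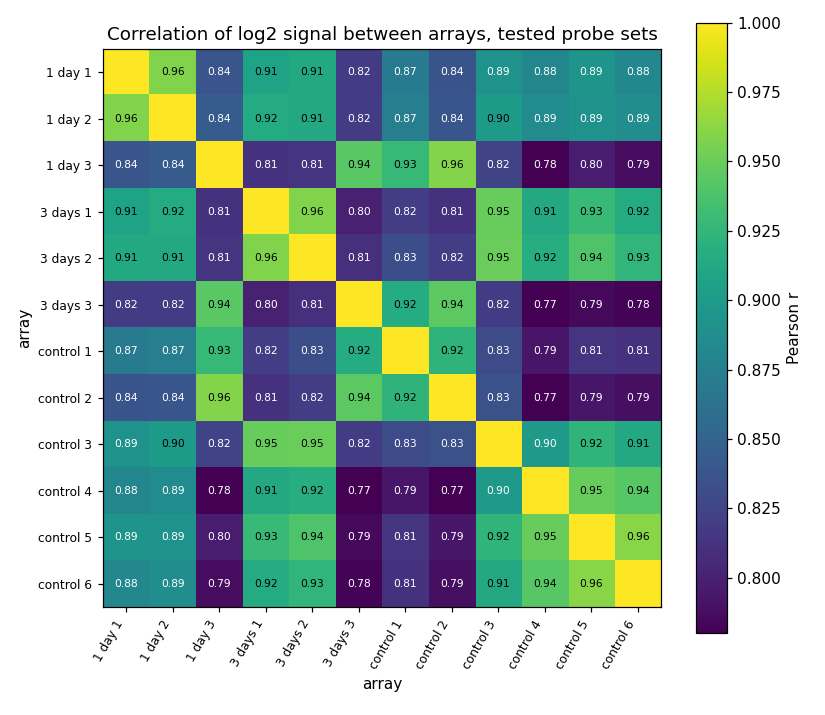
Pearson correlation of log2 signal over the tested probe sets between the 6 arrays at 1 day and 3 days and the 6 controls, 1 cell per pair of arrays. Arrays 3 at 1 day and 3 days correlate at 0.944 with each other and at 0.800 to 0.844 with the other arrays of their own time.

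The split was visible in some probe sets of cell type markers. S100b, a calcium-binding protein made mainly by astrocytes, had signals of 528.6 and 588.3 on arrays 1 and 2 at 1 day and 21.6 on array 3 (probe set S53527mRNA_s_at), and 555.2, 681 and 20 at 3 days. Igf2, a growth factor of meningeal and vascular cells, ran the other way, at 622.6, 645.3 and 7281.1 at 1 day and 514.7, 470.7 and 8743.8 at 3 days (X17012mRNA_s_at). Both probe sets therefore separated array 3 from arrays 1 and 2 at each time and did not separate the times. The other S100b probe set (rc_AI146214_at) did not show a split of this size. With 1 array left out, its difference between the times ran from -0.26 to 0.02, against -1.51 to 1.70 on S53527mRNA_s_at. Of 19 astrocyte markers 10 were on the array, with a summed signal of 35658.8 to 44734.8 at 1 day and 32157.2 to 34733.0 at 3 days, against 29415.7 to 43511.9 in the controls. Array 3 had the lowest sum at 1 day, and at 3 days its sum of 34421.5 lay between those of the other arrays. Of 17 fibroblast, meningeal and vascular markers 3 were on the array, at 6986.3 to 24352.9 and 14998.6 to 30720.0, highest on array 3 at both times. The 12 of 20 neuron markers summed to 5818.5 to 6319.2 at 1 day and 4655.2 to 7042.3 at 3 days. The 6 of 14 oligodendrocyte markers summed to 1169.9 to 1971.1 and 1227.3 to 1977.0, with Sox10, a factor of that lineage, dim on all 6 arrays. Itgam was the single microglia marker of 14 on the array, at 41.3 to 64.6 at 1 day and 47.7 to 77 at 3 days, close to the signal of 44.9 that the filter on dim probe sets used. Gfap, the usual astrocyte marker, and App, the amyloid precursor, were not analysed here.

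At this size of experiment a single probe set separated 3 days from 1 day by the test. In limma, fitted to log2 signal on all 18 arrays with p-values adjusted over all 1027 probe sets (Benjamini-Hochberg), 1 probe set was higher at 3 days and 0 were lower at an adjusted p under 0.05, which is 0.0974% of those tested. At an unadjusted p under 0.05 there were 86, of which 49 were higher and 37 lower at 3 days, where 51.4 would be reached with evenly spread p-values. The median difference over all probe sets was 0.06 on the log2 scale, with 565 of the 1027 positive and 462 negative. Without overlap between the times, 66 probe sets had all 3 arrays at 3 days above all 3 at 1 day (6.43%), and 50 had them below (4.87%). Both shares are near those that 6 arrays in random order would give, so a lack of overlap does not by itself mark a difference. Where the times do not overlap, the differences by array number always share a sign. Against control, 3 probe sets passed the test at 1 day (0.292%), and 120 had an unadjusted p under 0.05. At 3 days 0 passed (0%), the smallest adjusted p in limma was 0.452, and 47 had an unadjusted p under 0.05. Without both arrays numbered 3, 38 passed at 1 day and 5 at 3 days, 2 higher and 3 lower than control, with a smallest limma adjusted p of 0.00348 at 3 days. Both comparisons use the same 6 controls, and the second shares its arrays with the comparison of the times, so a return to the control level is described by levels and was not tested.

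The probe set that passed belongs to Nalcn, a cation channel that carries the resting sodium leak of neurons. Its signals at 1 day were 14.8, 11.8 and 37.8, and at 3 days they were 149.6, 129.7 and 79.1 (AF078779_g_at). The controls lay between 41.8 and 135.9 with a median of 105.6. All arrays at 3 days were above all arrays at 1 day, and all arrays at 1 day were below all controls. At 12 hours the signals were 6.8 to 10.1, all under the floor of 11.3 to which low values were raised, and at 5 days they were 58.7 to 120. The level at 3 days thus lay near that of the controls and of 5 days, and that at 1 day lay between the 12 hour and the control levels.

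Nalcn rose 6.15-fold from 1 day to 3 days, a log2 difference of 2.62 ± 0.46 (SE, n = 3 arrays at each time; limma adjusted p = 0.0424). Against control the log2 difference was -2.34 at 1 day (limma adjusted p = 0.0151) and 0.28 at 3 days. By array number the difference between the times was 3.34, 3.46 and 1.07 for arrays 1, 2 and 3. With the array number as a replicate block the adjusted p was 0.0912 and the call was lost. With the 2 array clusters as a block it was 0.0231, and without both arrays numbered 3 the difference was 3.40 with an adjusted p of 0.00212. The call was lost in 15 of 25 alternative settings, quantile normalization, other floors and several of the arrays left out singly among them, with an adjusted p of up to 0.324. The other Nalcn probe set (AF078779_at) gave 18.9, 62.2 and 135.8 at 1 day and 142.6, 180.1 and 133.8 at 3 days. There the times overlapped through array 3 at 1 day, and the difference of 1.48 did not pass (limma adjusted p = 0.550).

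**Figure D2:**
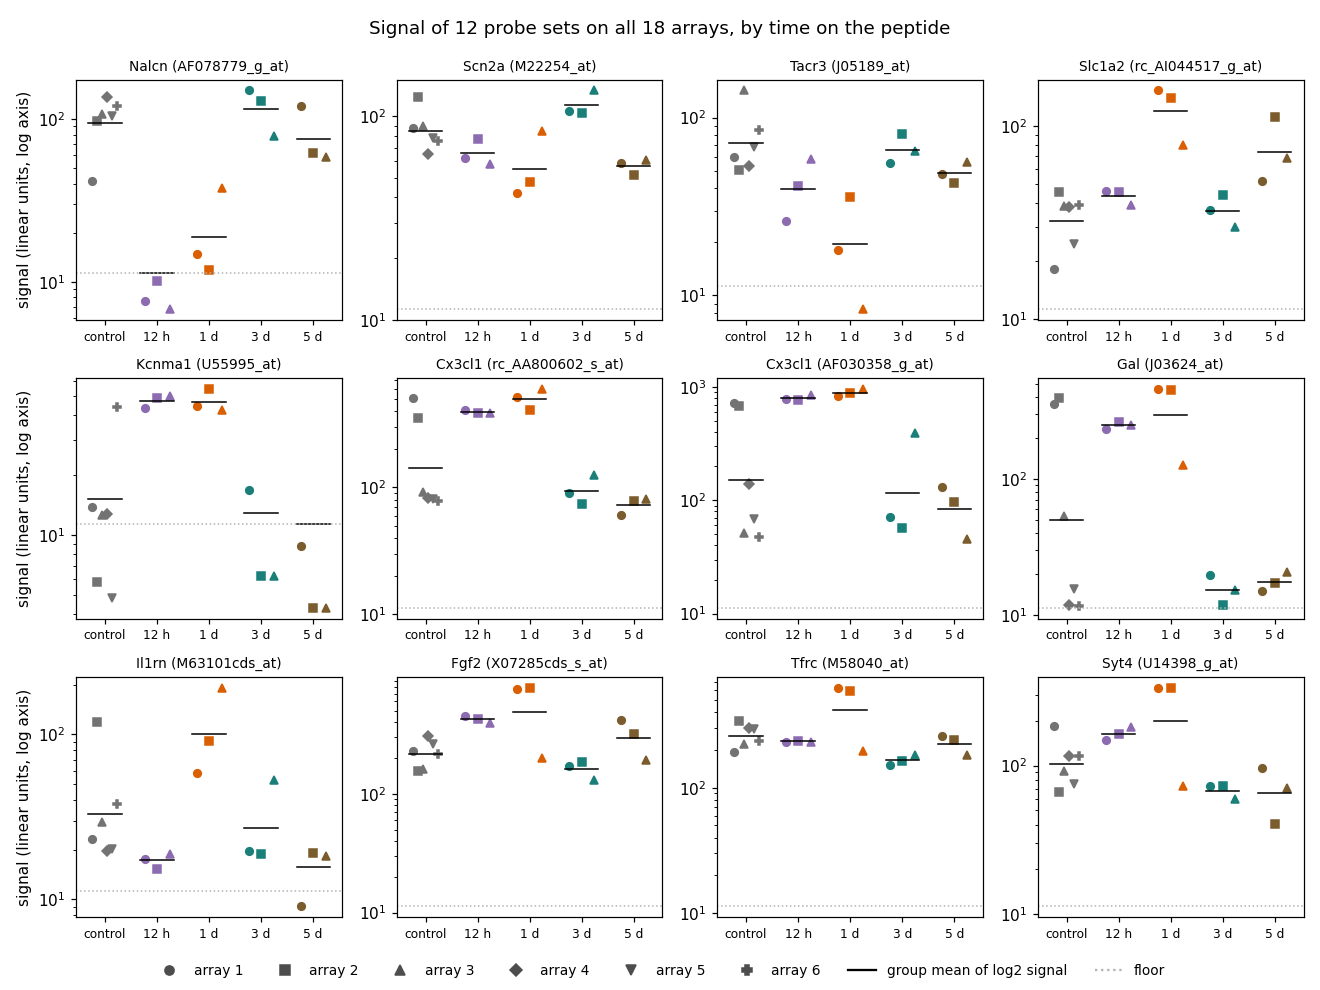
Signal on a log axis for 12 probe sets on all 18 arrays, grouped by control and time on the peptide; each point is an array, its shape the array number, the black bar the group mean of log2 signal and the dotted line the floor of 11.3. Nalcn, Scn2a and Tacr3 are higher at 3 days than at 1 day, and the other 9 probe sets are lower; in Fgf2, Tfrc and Syt4 array 3 at 1 day lies with the arrays at 3 days.

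The other probe sets that passed against control at 1 day belonged to Slc1a2 and Tacr3, and both were back among the controls at 3 days. Of 24 alternative settings the call against control at 1 day was lost in 3 for Slc1a2 and in 13 for Tacr3, among them the fit on only the groups compared for both. Slc1a2 encodes the main astrocyte glutamate transporter, which clears glutamate from the synapse. Its signals were 152.8, 139 and 79.5 at 1 day and 36.6, 44 and 30.1 at 3 days, against 18.2 to 45.8 in the controls (rc_AI044517_g_at). All arrays at 1 day were above every control, and all at 3 days were inside the control range. Against control the log2 difference was 1.88 at 1 day (limma adjusted p = 0.0151) and 0.17 at 3 days. The difference between the times, -1.71 ± 0.36, missed the threshold (limma adjusted p = 0.0893), and by array number it was -2.06, -1.66 and -1.40. At 12 hours the signal was 39 to 45.9, so the high values were seen at 1 day and not before, and at 5 days it was 51.7 to 111.4, above every control again.

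Other probe sets of Slc1a2 gave the same direction with smaller differences. Probe set rc_AI044517_at, at 63.1, 51 and 22.5 at 1 day and 12.6, 9.8 and 17.3 at 3 days, did not overlap between the times and gave -1.63 (limma adjusted p = 0.431). Probe set U15098_at, at 97.2, 111.9 and 62.3 against 55.2, 58.7 and 69.3, overlapped and gave -0.53 (limma adjusted p = 0.751), or -0.87 without both arrays numbered 3. Of the 3 Slc1a2 probe sets only rc_AI044517_g_at passed against control at 1 day. The controls of rc_AI044517_at ran from 7.7 to 62.1, so arrays 2 and 3 at 1 day lay inside their range (limma adjusted p = 0.389 against control).

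Tacr3 encodes the receptor for neurokinin B. Its signals were 18.1, 35.6 and 8.4 at 1 day and 55.6, 80.4 and 64.5 at 3 days, against 51 to 142 in the controls (J05189_at). All arrays at 1 day were below every control and all at 3 days were inside the control range. The signals at 1 day were dim, all under the filter of 44.9, and that of array 3 was under the floor of 11.3. At 12 hours the signals were 26.3, 41.2 and 58.3, and at 5 days they were 48.3, 43.1 and 56.1. Arrays 1 and 2 at 5 days were thus again below every control. Against control the log2 difference was -1.89 at 1 day (limma adjusted p = 0.0399, or 0.0540 without both arrays numbered 3) and -0.12 at 3 days. Between the times it was 1.77 ± 0.43 (limma adjusted p = 0.207), and by array number it was 1.62, 1.18 and 2.51.

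Cytokine and chemokine ligands held more probe sets lower at 3 days without overlap than any other list. Of 31 probe sets for 21 genes, 0 passed the test in either direction, 8 lay below 1 day without overlap, or 25.8%, against 4.87% of all probe sets, and 2 lay above, or 6.45%, against 6.43%. These 8 probe sets belong to 4 genes, with 4 of Cx3cl1 and 2 of Mif, so they are not independent. The median difference of the 21 genes was 0.05, against 0.06 over all probe sets, so the list as a whole was not lower.

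Cx3cl1, or fractalkine, is a membrane-bound chemokine whose receptor is carried by microglia. On probe set rc_AA800602_s_at its signals were 515.8, 406.7 and 595 at 1 day and 90, 74 and 124.4 at 3 days. The log2 difference was -2.41 ± 0.60 (limma adjusted p = 0.218) and was alike for the 3 array numbers, at -2.52, -2.46 and -2.26. Probe set AF030358_g_at gave 837.3, 884.2 and 960.1 at 1 day and 71.4, 57.5 and 393.1 at 3 days, a difference of -2.93 (limma adjusted p = 0.430). On rc_AI227647_s_at the signals were 254.6, 202.4 and 312.9 against 17.5, 26.8 and 147.7, and the difference was -2.62 (limma adjusted p = 0.431). The last probe set, AF030358_at, showed the smallest difference, -0.83, from 470, 499.8 and 591.8 to 267.3, 255.5 and 365.9. None of the 4 overlapped between the times and none passed. With the array clusters as a block the first 3 passed, at limma adjusted p = 0.00938, 0.0290 and 0.0376. At 12 hours rc_AA800602_s_at was already at 386.8 to 410.9, and at 5 days it was at 60.7 to 80.6. Its controls ran from 78.5 to 503.5, and controls 1 and 2 were the high ones. All arrays at 1 day lay above 5 of the 6 controls, and control 1 lay above array 2 at 1 day.

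Tgfb1, chosen after its values were seen, encodes a cytokine that restrains inflammation and drives scar formation. Its signals were 2515.9, 2415.1 and 2152.9 at 1 day and 922.9, 996.4 and 760.6 at 3 days (X52498cds_at). The arrays within each time lay close together and the times did not overlap. The log2 difference was -1.41 ± 0.52 (limma adjusted p = 0.490), at -1.45, -1.28 and -1.50 by array number. At 12 hours it was 2237.4 to 2478.7, as high as at 1 day, and at 5 days 501.6 to 1074.3, while the controls ran from 306.7 to 2408.9. The remaining lower probe sets of the list, also chosen after their values were seen, were Ccl20, a chemokine for lymphocytes and dendritic cells, with a difference of -0.95, and both probe sets of Mif, an inflammatory cytokine, with -0.28 and -0.32. Above 1 day lay Cd40lg, the ligand of the costimulatory receptor CD40, at 39, 48 and 37.1 at 1 day and 104.4, 63.7 and 58.7 at 3 days, a difference of 0.83 (limma adjusted p = 0.430). Il13, named after its values were seen, gave 1.10 (limma adjusted p = 0.582).

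Among cytokine receptors, Jak-Stat and NF-kappaB genes, 0 of 29 probe sets passed, and the median of 21 genes was -0.20. Il1rn, the antagonist that blocks the interleukin-1 receptor, showed the clearest difference, with 58.2, 90.7 and 191.7 at 1 day and 19.7, 18.9 and 52.7 at 3 days. The log2 difference of -1.90 ± 0.61 did not pass (limma adjusted p = 0.430). The differences by array number, -1.56, -2.26 and -1.86, had to share a sign because the times did not overlap. Unlike Cx3cl1 and Tgfb1, its signals at 12 hours, 15.3 to 18.9, were below those at 1 day. The controls ran from 19.6 to 118.3.

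Inflammatory enzymes, complement and adhesion molecules had a median of -0.34 over 6 genes, with 0 of 14 probe sets past the threshold and 3 below 1 day without overlap, or 21.4% against 4.87% of all probe sets. Ptgs2, the inducible prostaglandin synthase, was at 1653.5, 1835 and 917.7 at 1 day and at 802.4, 768.5 and 219.8 at 3 days, a log2 difference of -1.45 ± 0.71 (limma adjusted p = 0.588). At 12 hours it was higher than at either time, 2194.7 to 2486.7, and at 5 days it was 195.2 to 453.4. Nos2, the inducible nitric oxide synthase, was at 1003.6, 695.7 and 741.7 and then at 567.6, 614.3 and 610.5 (U16359cds_at), a difference of -0.43; its other probe sets gave -0.80 to 0.38. The third of these probe sets was for C3 (M29866_s_at), but its signals of 11.7 to 18.4 at 1 day were near the floor and all arrays at 3 days were at or below it.

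Stress genes ran both ways. Hmox1, heme oxygenase, which breaks down heme and is induced by oxidative stress, was higher at 3 days on both probe sets without overlap. On J02722cds_at its signals were 1351.9, 1255.5 and 2752.5 at 1 day and 3795.5, 4095.7 and 3142.4 at 3 days, a difference of 1.13 ± 0.47 (limma adjusted p = 0.561). By array number it was 1.49, 1.71 and 0.19, so array 3 carried little of it, and without both arrays numbered 3 it was 1.60 (limma adjusted p = 0.254). All arrays at 3 days were above the control range of 677.4 to 3049.6, and those at 1 day and at 5 days, 785.5 to 1850.1, were inside it. On rc_AI179610_at the difference was 0.75 and the signals at 3 days, 6217.1 to 6903.7, were again above every control. Of the 14 probe sets for metallothioneins and antioxidant enzymes 0 passed, and the median of 9 genes was 0.09. Above 1 day without overlap lay 3, or 21.4% against 6.43% of all probe sets, 2 of them for Hmox1, and 0 lay below. The largest difference of the list, picked out after its values were seen, was -1.81 for Mt2A, a metallothionein, with overlapping times. Heat shock proteins and chaperonins had a median of -0.16 over 7 genes, 0 of 12 probe sets past the threshold and 2 below 1 day without overlap, or 16.7% against 4.87% of all probe sets. These were the mitochondrial chaperonin Hspd1, at 7883.2, 7451.3 and 5461.9 and then 4969.7, 5039.2 and 5375.2, and Hsp90ab1, a cytosolic chaperone, with -0.35.

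Several genes differed between the times on arrays 1 and 2 and little on array 3. Tfrc, the transferrin receptor through which cells import iron, was at 629.2, 597.4 and 196.9 at 1 day and at 151.5, 164.4 and 184.3 at 3 days. The log2 difference of -1.34 ± 0.35 had a limma adjusted p of 0.218, and by array number it was -2.05, -1.86 and -0.10. Its 1 day signals on arrays 1 and 2 were above the control range of 193.1 to 342.8 and above 12 hours, 232 to 237.4. Array 3 at 1 day was inside the control range, and all arrays at 3 days were below every control. The iron handling list had 3 measured genes, all negative, with a median of -0.65 and 0 of 5 probe sets past the threshold.

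Fgf2, a growth factor that makes astrocytes divide, differed less on array 3 than on arrays 1 and 2. It was at 764.8, 782.1 and 199.7 at 1 day and at 172.6, 187.2 and 131.9 at 3 days (X07285cds_s_at). The log2 difference was -1.60 ± 0.44 (limma adjusted p = 0.218), at -2.15, -2.06 and -0.60 by array number. The other Fgf2 probe set (M22427_at) gave -1.05 with overlapping times, at -1.11, -1.31 and -0.73 by array number. Syt4, a vesicle protein of regulated secretion, was at 333.7, 332.6 and 73.1 and then at 72.5, 72.3 and 59.6 (U14398_g_at), a difference of -1.57 ± 0.51 (limma adjusted p = 0.430), with -2.20, -2.20 and -0.29 by array number. Dusp5, a phosphatase that switches off ERK and is induced by it, was at 2025.9, 2299.8 and 482.9 and then at 365.3, 510 and 339.1. The Dusp5 times overlapped through array 3, and its difference was -1.72 ± 0.72 (limma adjusted p = 0.561). Without both arrays numbered 3, Tfrc (adjusted p = 0.00212), Fgf2 (0.0106) and Syt4 (0.0381) passed in limma, and Dusp5 did not (0.254).

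**Figure D3:**
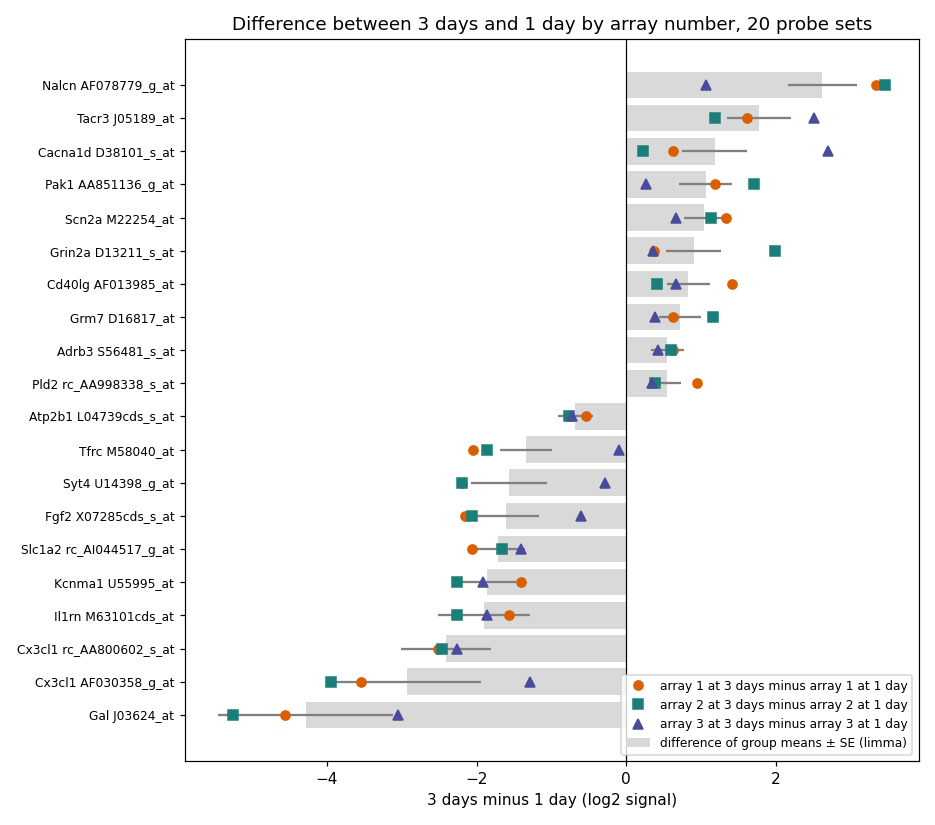
Log2 difference of 3 days minus 1 day for the 10 probe sets with the smallest p in each direction among those that did not overlap between the times; grey bars are the difference of group means with its SE from limma, and points the difference between arrays of the same number. For Cx3cl1 rc_AA800602_s_at the 3 points lie between -2.52 and -2.26, while for Tfrc, Syt4 and Fgf2 the difference on array 3 is near 0 or clearly smaller than on arrays 1 and 2.

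The largest difference among these 20 probe sets was that of Gal, the precursor of the neuropeptide galanin. Its signals were 458.5, 448.4 and 126.5 at 1 day and 19.5, 11.8 and 15.3 at 3 days, 19.5-fold lower on the scale of the fit. The log2 difference of -4.28 ± 1.17 did not pass (limma adjusted p = 0.218), and by array number it was -4.56, -5.25 and -3.05. At 12 hours the signals were 234 to 261.8 and at 5 days 14.9 to 20.6. The controls ran from 11.6 to 393, the whole span between the times, with controls 1 and 2 at the top. Pnoc, the precursor of nociceptin, was at 600.2, 672.4 and 389.1 at 1 day and at 328.7, 369.9 and 288 at 3 days (S79730_s_at), a difference of -0.72 ± 0.25 (limma adjusted p = 0.430). The neuropeptide list had a median of -0.41 over 12 genes, and 0 of 16 probe sets passed. Of the 12 genes 8 were negative, against 462 of all 1027 probe sets.

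Immediate early genes, the transcription factors that answer a stimulus first, gave a median of -0.22 over 9 genes. None of their 17 probe sets passed, and 3, or 17.6% against 4.87% of all probe sets, lay below 1 day without overlap. Both probe sets of Nr4a1, an orphan nuclear receptor of this class, were among them. On U17254_g_at its signals were 965.8, 1034.8 and 1582.2 at 1 day and 572.7, 561.1 and 273.7 at 3 days, with a difference of -1.39 ± 0.48 (limma adjusted p = 0.430), or -0.82 without both arrays numbered 3. All arrays at 3 days were below the control range of 584.7 to 2502.5, and those at 1 day were inside it. On the other probe set (U17254_at) array 2 at 3 days, at 408.6, was inside the control range. At 5 days the signals were 1681.6 to 2440.3 on U17254_g_at, inside the control range. On U17254_at they were 857.7 to 1612.1, where the controls ran from 385.0 to 1240.7. Jund, a member of the AP-1 family, ran the other way, at 17.6, 17.9 and 29.2 and then 26.9, 104.7 and 131.2, and its times overlapped.

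Ion channels held the single call and many differences that did not pass. Of 49 probe sets for sodium, calcium and cation channels 1, that of Nalcn, rose and 0 fell, and the median of 34 genes was 0.06, as over all probe sets. Scn2a, a voltage-gated sodium channel, was at 42.1, 47.6 and 84.5 at 1 day and at 106, 104.3 and 133.9 at 3 days, a log2 difference of 1.04 ± 0.27 (limma adjusted p = 0.218). Arrays 1, 2 and 3 gave 1.33, 1.13 and 0.66. With the array clusters as a block, which were formed from these same values, it passed (limma adjusted p = 0.0290). Cacna1d, an L-type calcium channel, was at 39.8, 45.3 and 11.6 and then at 61.6, 53 and 74.9. Its difference of 1.18 (limma adjusted p = 0.449) lay mostly in array 3, at 0.63, 0.23 and 2.69 by number, and was 0.43 without both arrays numbered 3.

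Of 46 potassium channel probe sets 0 passed, with a median of 0.15 over 36 genes. Kcnma1, the large-conductance channel opened by calcium, was at 44.7, 54.3 and 42.5 at 1 day and at 16.8, 6.2 and 6.2 at 3 days (U55995_at). The log2 difference was -1.86 ± 0.39 (limma adjusted p = 0.0893). Since 2 of the arrays at 3 days were under the floor, its size is understated. At 12 hours the signals were 43.4 to 50.2 and at 5 days 4.3 to 8.8, and 5 of the 6 controls were low, with control 6 at 43.9. The other Kcnma1 probe set (AF083341_s_at) gave 0.85 in the opposite direction, from 60.7, 19.6 and 78.5 to 57.3, 106.2 and 90.4, so the gene has no settled direction here. Kcnj14 and Kcnj3, both inward rectifiers, differed in opposite directions, at -1.30 and 1.07 without overlap.

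Glutamate receptors had a median of 0.19, and 0 of 29 probe sets passed. Of their 18 genes 13 were positive, against 565 of all 1027 probe sets. There were 4 without overlap above 1 day, or 13.8% against 6.43% of all probe sets, and 0 below; 2 of the 4 belong to Grina. Grin2a, an NMDA receptor subunit, was at 45.4, 16.9 and 54.9 and then at 58.6, 67.1 and 70.3 (D13211_s_at), a difference of 0.90, while its other probe set gave -0.13. Grm7, a presynaptic metabotropic receptor, was at 71.1, 48.9 and 85.5 and then at 109.3, 108.9 and 111.5, a difference of 0.72 (limma adjusted p = 0.533). Grin1, the shared NMDA receptor subunit, was at 9.5, 16.7 and 73.5 at 1 day and at 70.2, 84 and 77.2 at 3 days (S39221_at). Its difference of 1.68 had a limma adjusted p of 0.218, and 0.000171 without both arrays numbered 3, where it was 2.48. Other Grin1 probe sets gave 0.43 and -0.08. On S39221_at arrays 1 and 2 at 1 day were far under the filter of 44.9.

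Monoamine and peptide receptors had a median of 0.14 over 42 genes, with 0 of 50 probe sets past the threshold. Of the 42 genes 27 were positive, against 565 of all 1027 probe sets. Adrb3, the beta-3 adrenergic receptor, was at 236.6, 208.4 and 239.8 and then at 362.9, 316.2 and 321.8, a difference of 0.55 ± 0.22 (limma adjusted p = 0.555). Cnr1, the cannabinoid receptor of brain, was at 207, 212.1 and 34.1 at 1 day and at 66.1, 67.1 and 18.7 at 3 days, and the controls ran from 21.2 to 46.3. On arrays 1 and 2 it was above every control at both times, with lower signals at 3 days, and array 3 was inside the control range at 1 day. Its difference was -1.39 (limma adjusted p = 0.582). Among 48 probe sets of GABA, glycine and acetylcholine receptors 0 passed, with a median of 0.07 over 33 genes.

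Among signalling enzymes, Pak1, a kinase that remodels actin, was at 462.9, 360.8 and 561 at 1 day and at 1055.2, 1182.5 and 674.9 at 3 days (AA851136_g_at), a log2 difference of 1.06 ± 0.36 (limma adjusted p = 0.430). Its other probe set gave 0.94 with overlapping times. Pld2, a phospholipase that makes phosphatidic acid, was at 305.6, 316.1 and 359.2 and then at 584.8, 413.5 and 455 (rc_AA998338_s_at), a difference of 0.55, while its other probe set gave -0.16. Atp2b1, a calcium pump of the plasma membrane, was at 259, 295.4 and 292.4 and then at 178.7, 174.7 and 175.7 (L04739cds_s_at), a difference of -0.68 ± 0.23 (limma adjusted p = 0.430). The values of each time agreed closely, and the difference was -0.54, -0.76 and -0.73 by array number. Its other probe set gave -0.28 with overlap. Gnb1, a G protein beta subunit, had all 5 of its probe sets above 1 day without overlap, with differences of 0.36 to 0.55 and limma adjusted p of 0.582 to 0.722. These probe sets measure the same gene and are not independent. Kinases and phosphatases had a median of 0.12 over 29 genes and 0 of 51 probe sets past the threshold. G proteins, cyclases and phosphodiesterases had a median of -0.02 over 14 genes, and 0 of 27 passed. There were 7 of the 27 above 1 day without overlap, or 25.9% against 6.43% of all probe sets, 5 of them for Gnb1, and 0 below.

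Returns were also counted by range, without a test. Some probe sets fall wholly outside the control range by chance. With 3 arrays and 6 controls in random order, at least as many would do so on each side as were seen at 1 day and at 3 days. Probe sets picked for extreme values at 1 day also tend to lie nearer the controls at another time through that choice alone. The counts are therefore a description and do not show a return. At 1 day 10 probe sets had all 3 arrays above every control (0.974%) and 8 had them below (0.779%). At 3 days 16 lay outside the control range on all 3 arrays (1.56%), 6 above and 10 below. More lay outside at the other times, 55 above and 99 below at 12 hours and 22 and 33 at 5 days. Of the 18 range changes at 1 day, 5 had all 3 arrays inside the control range at 3 days, 3 were still outside on the same side, 0 were outside on the other side and 10 were mixed. These counts depend on the arrays used. With each array centred on its median 10 of 27 were back. Without both arrays numbered 3 it was 75 of 156, and without 1 day array 3 alone 57 of 156. With fewer arrays at a time it is easier for all of them to lie outside, or inside, the control range. The last 2 counts are therefore not directly comparable with 5 of 18.

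The 5 that were back were Slc1a2, Cx3cl1 (AF030358_g_at) and Itgb3 from above, and Tacr3 and a probe set with no single symbol from below. For Cx3cl1 the control range was wide, with controls 1 and 2 at 731.3 and 679.7 and controls 3 to 6 at 47.5 to 139. Array 3 at 3 days, at 393.1, lay between these 2 sets of controls. Itgb3, the beta-3 integrin subunit, was at 288, 253.9 and 278.7 at 1 day and at 195.1, 140.5 and 211.4 at 3 days, against 102.2 to 238.5 in the controls. The difference between the times was -0.60 ± 0.27 (limma adjusted p = 0.582). Kept outside the range were Camk2d, Nrp2 and a probe set with no single symbol. Nrp2, a receptor for semaphorins and VEGF chosen after its values were seen, was at 240.9, 254.4 and 295.9 at 1 day and at 255.6, 340.4 and 345.1 at 3 days, with controls at 121.5 to 202.7. At 12 hours it was 117 to 142.2 and at 5 days 132.7 to 190.2, none above the controls. Camk2d, a calmodulin-dependent kinase, was at 94.8, 84.1 and 73.2 and then at 82.9, 99.6 and 87.1, just under the control range of 100.9 to 228.8 (rc_AA925495_at). Its other probe sets gave differences of 0.17 to 0.30 between the times.

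Among the 10 mixed probe sets, Nalcn was mixed because array 1 at 3 days, at 149.6, was above the highest control. Pld2 had 1 array at 3 days above the highest control and another just below the lowest. Both probe sets of Nefl, the light neurofilament chain of neurons, stayed high on arrays 1 and 2 only. On AF031880_at its signals were 441.5, 427.1 and 195.3 at 1 day and 501, 495.8 and 95.1 at 3 days, against 72.5 to 159.1 in the controls. Array 3 alone was inside the range at 3 days, and the difference between the times was -0.21 (limma adjusted p = 0.950), or 0.20 without both arrays numbered 3. Capn8, Chrnb4, Syngr1 and Arrb2 were the other mixed probe sets from above, and Camkk1 and Nptxr from below.

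**Figure D4:**
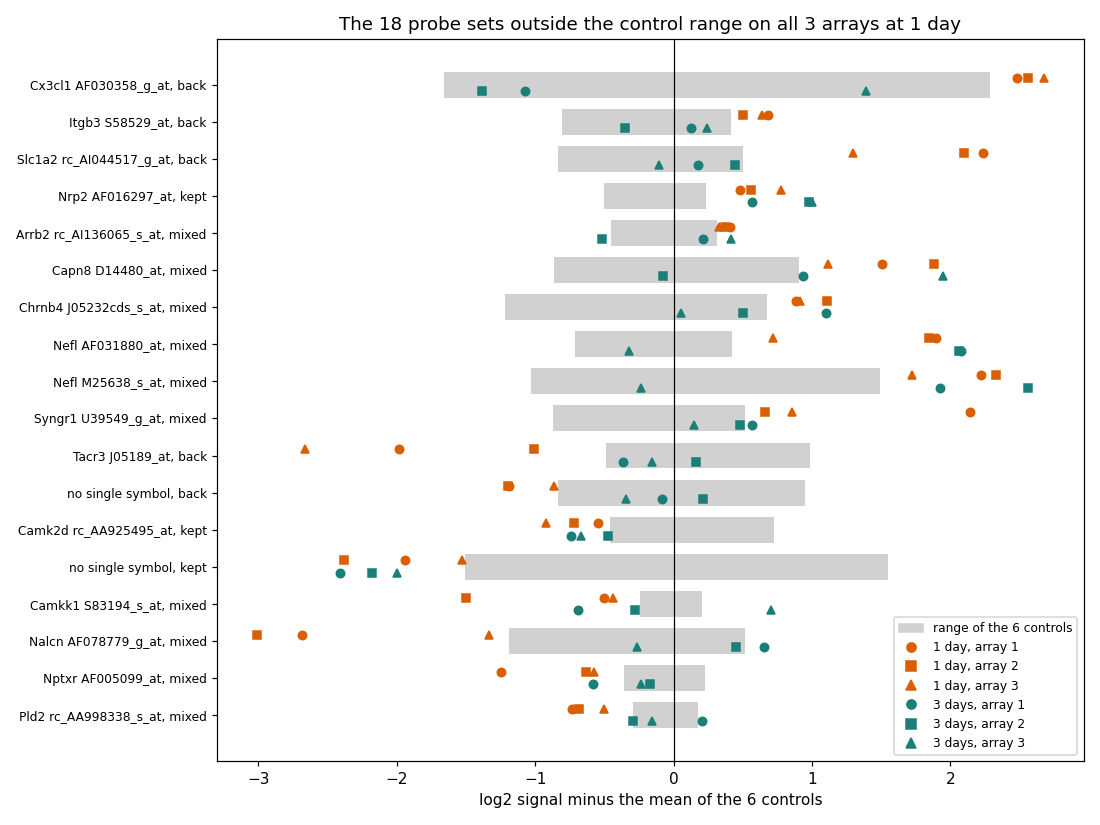
Log2 signal minus the mean of the 6 controls for the 18 probe sets outside the control range on all 3 arrays at 1 day; grey bars are the control range, orange points the arrays at 1 day, green points those at 3 days, and the shape is the array number. The 5 probe sets marked back have all green points inside the grey bar, the 3 marked kept have them beyond it on the side of the orange points, and the 10 marked mixed have them on both sides of an edge.

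Astrocyte genes showed no probe set past the threshold among 22, with a median of -0.44 against 0.06 over all probe sets. Of 10 genes 9 were negative, against 462 of all 1027 probe sets. The median was -0.65 without both arrays numbered 3. Vim, the intermediate filament vimentin, was at 11977.8, 14497.8 and 16603.7 at 1 day and at 12554.5, 14402.3 and 15247.7 at 3 days, a difference of -0.02. Apoe, the lipid carrier of the brain, was at 4313.5, 3943.8 and 622.4 and then at 985.5, 1125.7 and 308.1 (S76779_s_at), a difference of -1.65 ± 0.91 (limma adjusted p = 0.648). By array number it was -2.13, -1.81 and -1.01, and the other Apoe probe set gave -0.91, or -1.50 without both arrays numbered 3. At 5 days Apoe was at 5296.7 to 8126.8, above the arrays of both times. Glul, glutamine synthetase, gave -0.51 to -0.10 over its 4 probe sets, and on rc_AI232783_s_at it was at 8804.6, 7218.9 and 6263.2 and then at 5909.8, 6621.2 and 4981.2. Slc1a3, the other astrocyte glutamate transporter, gave -0.57 to -0.32 over its 4 probe sets. Its S59158_at signals were 3289.3, 3316.1 and 301.9 at 1 day and 2396.4, 2434.5 and 293.1 at 3 days, so array 3 differed from arrays 1 and 2 by far more than the times did. All 5 genes of glutamate uptake and glutamine synthesis were negative, with a median of -0.32 and 0 of 17 probe sets past the threshold.

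Of the 30 gene lists, that of the cell cycle had no measured member, and those with medians farthest from that of all probe sets were iron handling (-0.65), astrocyte markers (-0.44), neuropeptides (-0.41) and inflammatory enzymes (-0.34). The median of the fibroblast, meningeal and vascular markers was 0.44. The positive members of that list were Igfbp2, an insulin-like growth factor carrier, at 3622.2, 3742.5 and 9902.7 at 1 day and 9203.7, 8934.7 and 15481.9 at 3 days (J04486_at), with overlapping times, and Pdgfrb, a growth factor receptor of pericytes; Igf2, the last of the 3 genes, gave -0.16 on its brightest probe set. Neurotrophins and their receptors had 9 of 10 genes positive, against 565 of all 1027 probe sets, and a median of 0.26. Growth factors and their receptors had a median of -0.10 over 19 genes, which was 0.13 without both arrays numbered 3. Cell death genes had a median of -0.01 over 13 genes and neuron markers -0.01 over 12. Without both arrays numbered 3 the medians of 5 lists changed sign, beside that of growth factors: immediate early genes to 0.01, cytokine and chemokine ligands to -0.01, cell death to 0.10, neuron markers to 0.15 and G proteins to 0.08. The remaining lists had 0 probe sets past the threshold and medians of 0.15 (matrix, proteases and adhesion), 0.08 (exocytosis and vesicle proteins), 0.18 (amyloid and tau), 0.14 (oligodendrocyte markers) and 0.17 (microglia markers). The medians of transmitter enzymes and transporters, 0.03, and of the cytoskeleton, 0.01, turned to -0.01 and -0.03 under quantile normalization.

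**Figure D5:**
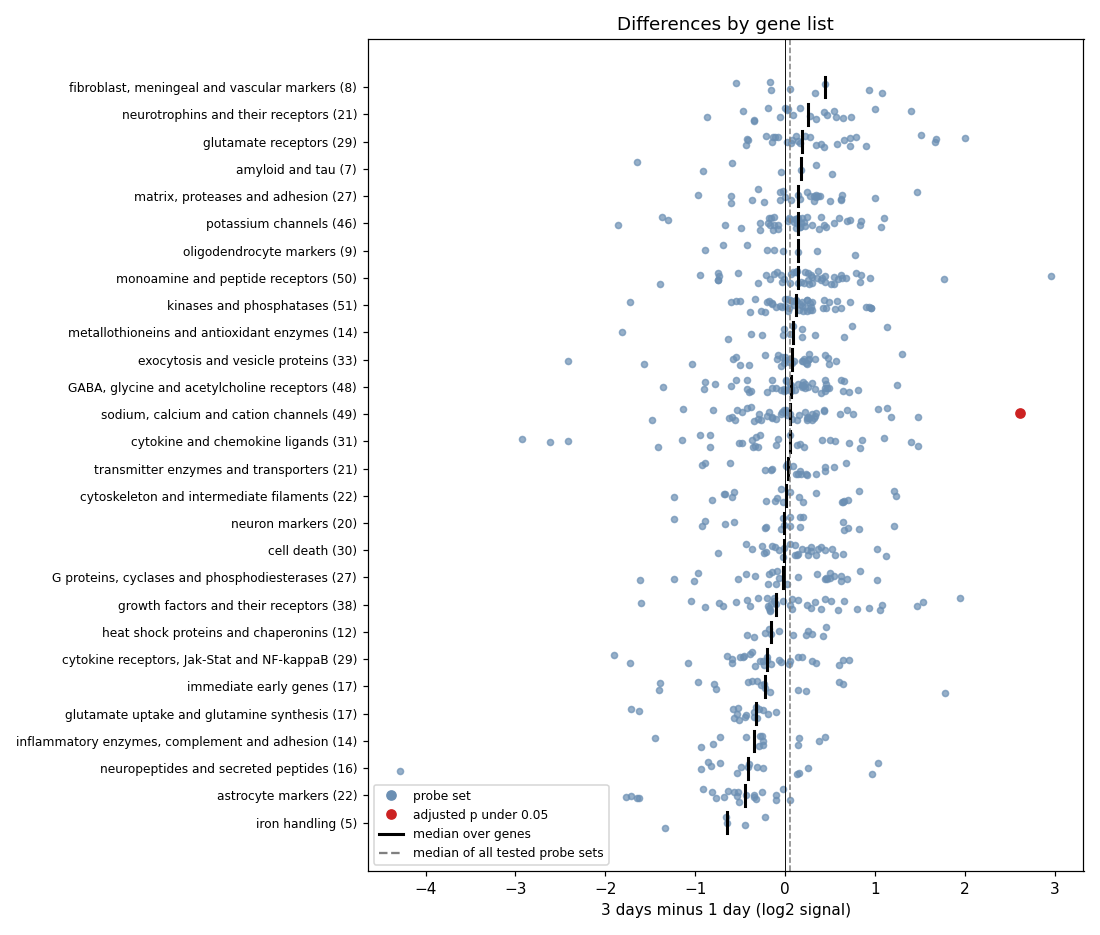
Log2 difference of 3 days minus 1 day for the tested probe sets of each gene list with at least 3 measured genes, with the number of probe sets in brackets; points are probe sets, black bars list medians over genes, the red point the probe set with an adjusted p under 0.05 and the dashed line the median of all tested probe sets. The red point is Nalcn in the sodium, calcium and cation channel list, and the point at -4.28 is Gal.

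Setting the array clusters aside changed which probe sets passed. The clusters were formed from the values tested, so the adjusted p-values of this fit may be too small. With the 2 clusters as a block 13 passed in limma, 6 higher and 7 lower at 3 days, Nalcn among them. Beside the genes already given as passing in this fit, they were Slc1a2 (adjusted p = 0.0290), Kcnma1 (0.0290), Fgf2 (0.0455) and Tacr3 (0.0370). The rest lie outside the naming rule and are given because they make up the count. Cntf, a survival factor for neurons that astrocytes make, was at 433.5, 379.3 and 85.3 at 1 day and at 1238.5, 1397.5 and 149.2 at 3 days, 1.40 higher on the log2 scale (limma adjusted p = 0.0290 with the clusters and 0.848 without them). Igfbp3, an insulin-like growth factor carrier, was at 760.4, 752.9 and 78 and then at 3612.3, 4047.4 and 75.8, a difference of 1.54 that was absent on array 3. Adra1d, an alpha-1 adrenergic receptor, was at 27.3, 12.4 and 6.5 and then at 395.2, 402 and 9 (M60654_at). Its array 3 was under the floor at both times, and the controls ran from 9.2 to 371.6. The difference was 2.96 (limma adjusted p = 0.0376 with the clusters and 0.582 without them). The other Adra1d probe set (AF071014mRNA_s_at) gave 0.62. Serpine2, the protease inhibitor glia-derived nexin, was at 2278.8, 2111.5 and 6512.6 and then at 945.6, 1002.6 and 2148.5, and gave -1.31, with each array number negative.

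Without both arrays numbered 3, 6 probe sets passed, 2 higher and 4 lower. They were Nalcn, Grin1, Tfrc, Fgf2 and Syt4, given above, and Kcnj16, an inward rectifier of glia named after its values were seen. Kcnj16 was at 70, 83.4 and 57.8 at 1 day and at 13.7, 9 and 126.1 at 3 days, so array 3 ran opposite to arrays 1 and 2, with a difference of -2.62 without it and -1.37 with it. Nalcn and Fgf2 were the genes that passed under both the cluster block and the removal of arrays 3.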

How the data were processed

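The authors deposited a table of linear array intensity (signal) with 1322 probe sets on 18 arrays. Software and scaling target: not given in the sources used here. The mean without the lowest and highest 2% was 502.1 to 502.6 on every array, so the arrays were not scaled again. The 59 control probe sets were left out. Over the other 1263, values under the 10th percentile (11.3) were raised to it, log2 was taken, and the 1027 probe sets above the 30th percentile (44.9) on at least 3 arrays were kept, so changes near the floor are understated. Symbols came from the platform annotation: 1137 probe sets had 1 symbol, 8 several and 118 none, and only the first are named. Limma 3.58.1 on R 4.3.3 (lmFit, eBayes, two-sided) fitted 5 groups with 13 residual degrees of freedom. Deviations from the group means correlated between same-numbered arrays at 1 day and 3 days (0.390, 0.429 and 0.683). Deviations within a group cancel out, so the distance of array 3 at both times raises all 3 values. Array 1 at 1 day correlated at 0.908 with array 1 at 3 days and at 0.914 with array 2. Array 2 at 1 day correlated at 0.913 with array 2 at 3 days and at 0.915 with array 1. Arrays 1 and 2 were thus no closer to the same number than to the other. For array 3 the pairing comes from the values, not from the labels, and cannot be told apart from the array clusters. Named were up to 10 probe sets per direction by smallest p among those without overlap, those called at 1 day against control, up to 8 range changes at 1 day in each direction, up to 3 per list, and astrocyte genes. The genes, 30 lists and settings were chosen with earlier results of these data known. Alternatives were normalizations, floors, filters, fits, blocks and arrays left out. The procedure was tested on simulated data.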

Additional observations from a re-analysis of the deposited data

Results flagged for a closer look

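For 29 named probe sets the 6 controls were examined for a value far from the others, which chance flags in about 1 of 20 groups, and 3 were found. Nalcn (AF078779_g_at) was low on control 1, at 41.8, where the other controls lay between 96.8 and 135.9. Kcnma1 (U55995_at) was high on control 6, at 43.9, which is near the level at 12 hours and 1 day. Il1rn (M63101cds_at) was high on control 2, at 118.3, between the arrays at 1 day. The effect against control differed between the times for Nalcn, by 2.62 on the log2 scale, and that test is the comparison of 3 days with 1 day itself.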

How the results depend on the processing

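The count of probe sets past the threshold between 3 days and 1 day, 1, was 0 under quantile normalization, a floor at the 20th percentile, a floor of 1, no filter, only the arrays of the groups compared, trend and robust weights, and the replicate block. It was 2 under cyclic loess, 13 with the 2 array clusters as a block and 6 without both arrays numbered 3. Leaving out 1 array gave 0 to 10, with 10 without 1 day array 3, 2 without 3 days array 3, 3 without control 1, 2 without control 6 and 0 without each other array. Nalcn lost its call in 15 of 25 alternatives, with a log2 difference of 2.03 to 3.40 and an adjusted p of 0.00168 to 0.324. For 1 day against control the count of 3 was 1 with the floor at the 20th percentile or the filter at the median, 0 with only the groups compared, 16 with the replicate block, 30 with the cluster block and 38 without both arrays numbered 3; leaving out 1 array gave 0 to 26, with 26 without 1 day array 3. Of the range changes 5 were back. This was 10 under median centring or cyclic loess and 3 with the filter at the median. It was 75 of 156 without both arrays numbered 3, and 4 to 57 with 1 array left out, 57 without 1 day array 3. Fewer arrays at a time make the rule easier to meet, so counts with arrays left out are not directly comparable with 5. Over 101 named probe sets and 2496 alternatives, 2435 kept direction and side of the threshold, 23 newly passed, 15 lost the call and 23 changed sign. The sign changes were in differences near 0 or in genes that separate array 3: Nefl AF031880_at was 0.20 and Vim 0.03 without both arrays numbered 3, Vim was 0.00 under cyclic loess and S100b S53527mRNA_s_at -0.02 under quantile normalization. With 1 array left out the ranges were -1.24 to 0.16 and -0.62 to 0.58 (Nefl M25638_s_at and AF031880_at), -0.19 to 0.00 (Glul rc_AI012265_i_at), -0.26 to 0.02 and -1.51 to 1.70 (S100b rc_AI146214_at and S53527mRNA_s_at), -1.47 to 0.70, -1.75 to 0.39 and -1.49 to 0.53 (Slc1a3 S59158_at, S75687_s_at and X63744_g_at), -0.15 to 0.09 (Vim), -0.03 to 0.35 (Itgam) and -0.04 to 1.20 (Psen2 X99267_at). The cause was not tested. With percentiles over all rows of the table, chosen after seeing the data, the 3 counts were unchanged. The replicate block changed no other call between the times. The arrays hold no counts or detection calls, so 3 arrays per time and signals near the floor limit the precision.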
